A study of Mus musculus with 9 samples.

Results

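The genes described here are 7 loci that bear on which C57BL/6 background a mouse carries. Nnt, Wdfy1, Entpd4, Ide and Gabra2 were taken by symbol because their expression is known to differ between sublines of C57BL/6. AC149090.1 and Gm10600 were selected on their counts in these same libraries, which separated the STING KO line from the others, so their levels are a description and were given no test. All 7 were found among the 54532 gene IDs of the count tables, and 6 of them passed the filter on low counts, as did 17821 genes in all. Entpd4 was the member that did not pass.

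C57BL/6J and C57BL/6N are sublines of a single inbred mouse strain that have been bred apart for decades, and each has fixed its own small set of mutations. C57BL/6J lacks several exons of Nnt and carries an intronic deletion beside a splice site of Gabra2, both of which lower the gene's output in that subline. Knockout lines are often set against wild-type mice from another colony, and genes of this kind are a usual check on whether such groups share a background.

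Messenger RNA of the striatum, the input nucleus of the basal ganglia, was sequenced in 9 libraries: 3 from mice lacking the DNA sensor cGAS (cGAS KO), 3 from mice lacking the adaptor STING (STING KO) and 3 from wild-type mice (WT). All 9 libraries are labelled as C57BL/6J, both knockouts were made with CRISPR-Cas9, and ischemic stroke is named as the setting in the series' design text. The labels give no age, no source of the wild-type mice, no founder and no generation of backcrossing. They do not say that replicates are separate animals, so the spread behind each p-value may be technical.

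Library totals ranged from 14129021 to 21286775 counts. Each group held 1 library that stood apart, namely replicate 2 of cGAS KO, replicate 2 of STING KO and replicate 3 of WT. They had 2280 to 4723 genes with only 1 to 9 counts, where the remaining 6 had 7096 to 7927. Summed over 10 markers of striatal projection neurons, the level ran from 4964 CPM (counts scaled to library size with TMM factors) in WT replicate 3 to 10220 CPM in cGAS KO replicate 3, and none of the 10 was at 0 in any library. Summed choroid plexus markers reached 2715 CPM in WT replicate 1, against at most 445.2 CPM elsewhere, and summed cortical excitatory markers reached 1033 CPM in WT replicate 3. The targeted gene Cgas was at 1.10, 0.377 and 0.262 CPM in cGAS KO, 1.55, 1.05 and 1.45 CPM in STING KO, and 1.40, 2.63 and 3.18 CPM in WT libraries. Sting1, listed as Tmem173, was at 2.67, 1.66 and 2.75 CPM in cGAS KO, 2.18, 1.05 and 1.85 CPM in STING KO, and 4.06, 3.01 and 1.34 CPM in WT libraries. Transcripts of both targeted genes were therefore still counted in their own knockouts, and the STING KO and WT levels of Sting1 overlap.

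None of the genes known from C57BL/6J and C57BL/6N was called in any comparison. Of Nnt, Wdfy1, Ide and Gabra2, 0 of 4 passed an adjusted p of 0.05 in edgeR's quasi-likelihood test for cGAS KO versus WT, where 0% of the 17821 genes tested were called. The same held for STING KO versus WT, with 0% of genes called, and for STING KO versus cGAS KO, also with 0%. Genes with an unadjusted p under 0.05 numbered 361, 291 and 258 in these comparisons, in that order. limma-voom called 0 genes in each, and DESeq2 called 1, 10 and 8, none of them among these 4. A p that misses the threshold does not show that the groups are alike, and in bulk tissue fewer cells of a type and less RNA per cell cannot be told apart.

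Per kilobase of annotated exon and over all 9 libraries, AC149090.1 was the most abundant member, at a mean of 148.3 CPM per kilobase. Gabra2 followed with 19.0, Ide with 7.35 and Wdfy1 with 3.86 CPM per kilobase. Gm10600 was at 0.593, Nnt at 0.0764 and Entpd4 at 0.00806 CPM per kilobase. This order is of means over all groups and does not hold in each: Gm10600 had 0 counts in STING KO, and AC149090.1 averaged 1215 CPM in STING KO, against 229 CPM in WT. The levels of Gm10600, Nnt and Entpd4 rest on few reads, and those of Nnt and Entpd4 also on how reads of overlapping or identical annotation were assigned.

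**Figure D1:**
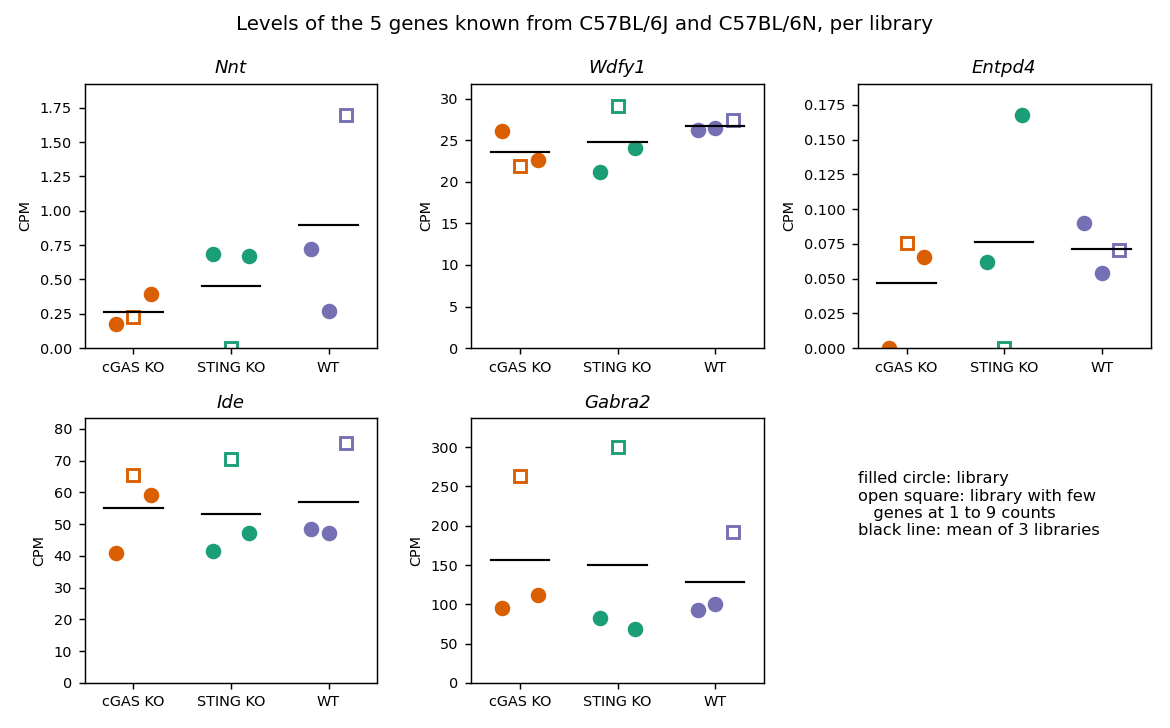
Level in CPM (vertical axis, starting at 0) of Nnt, Wdfy1, Entpd4, Ide and Gabra2 in each library of cGAS KO, STING KO and WT, with open squares for the 3 libraries that hold few genes at 1 to 9 counts. Groups overlap in every panel except Wdfy1 in cGAS KO, whose libraries lie at 21.96 to 26.11 CPM, below the 26.28 to 27.45 CPM of WT.

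Nnt (ENSMUSG00000025453, chromosome 13, 119335448 to 119408997, minus strand, GRCm38) encodes nicotinamide nucleotide transhydrogenase, the enzyme of the inner mitochondrial membrane that makes NADPH from NADH with the proton gradient. It had 3, 3 and 6 counts in cGAS KO, 11, 0 and 12 counts in STING KO, and 16, 5 and 24 counts in WT libraries. These are levels of 0.174, 0.226 and 0.393 CPM in cGAS KO, 0.684, 0 and 0.671 CPM in STING KO, and 0.723, 0.269 and 1.70 CPM in WT. All 3 groups held at least 1 library near the floor of 3 counts, which is 0.135 to 0.226 CPM at these depths, and all 3 groups overlap. The floor covers counting error only.

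The log2 fold change of Nnt was -1.72 ± 1.11 in cGAS KO versus WT (SE, adjusted p 0.9999 in edgeR's quasi-likelihood test). It was -0.94 ± 1.06 in STING KO versus WT and 0.78 ± 1.12 in STING KO versus cGAS KO. Without WT replicate 3 alone the value was -0.90 in cGAS KO versus WT and -0.12 in STING KO versus WT. Without the 3 libraries that stand apart it was -0.84 ± 0.73 in cGAS KO versus WT and turned to 0.42 ± 0.64 in STING KO versus WT. The 0 in STING KO replicate 2 is in the library with the fewest genes at 1 to 9 counts, and the highest value, in WT replicate 3, is also in a library that stands apart. The part of those libraries in the result was not tested beyond leaving them out.

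The low level of Nnt has a limit in the annotation. GENCODE M21 holds another gene ID of the same symbol, ENSMUSG00000116207, whose 3339 exonic bases all lie inside the exons of the first. They make up 47.4% of its 7037 exonic bases and 76.0% of the bases in its coding transcripts. The other ID had 0 counts in all 9 libraries. The sources used here do not say how reads that match both IDs were counted, and the level of Nnt in this tissue cannot be read from these counts. Of the 15 genes listed for mitochondrial NADPH and peroxide handling, 15 were tested and 0 were called in each comparison. Their median log2 fold change was -0.01 in cGAS KO versus WT and -0.03 in STING KO versus WT, beside -0.01 and 0 over all genes tested. The most abundant was Glud1, glutamate dehydrogenase, at 232.1 ± 29.7 CPM in cGAS KO, 214.6 ± 29.9 CPM in STING KO libraries and 233.1 ± 30.7 CPM in WT (SD, n = 3 each).

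Wdfy1 (ENSMUSG00000073643, chromosome 1, 79702262 to 79776143, minus strand) encodes an endosomal protein with WD repeats and a FYVE domain that helps Toll-like receptors TLR3 and TLR4 recruit the adaptor TRIF. It was at 26.11, 21.96 and 22.60 CPM in cGAS KO, 21.20, 29.06 and 24.09 CPM in STING KO, and 26.28, 26.42 and 27.45 CPM in WT libraries. Each cGAS KO library was below each WT library, an order that 4% of the genes tested also showed. STING KO libraries lay on both sides of the WT range. The log2 fold change was -0.18 ± 0.18 in cGAS KO versus WT, -0.11 ± 0.18 in STING KO versus WT and 0.07 ± 0.18 in STING KO versus cGAS KO (SE, adjusted p 0.9999 or more in edgeR). Wdfy1 was the steadiest member: its SD within groups was 0.15 on the log2 CPM scale, higher than that of 6.9% of genes, where the median over genes was 0.44. Without the 3 libraries that stand apart, the fold change in STING KO versus cGAS KO turned to -0.11 ± 0.16.

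Of 11 listed genes for the other WDFY proteins and the TRIF pathway, 10 were tested and 0 called in each comparison. In STING KO versus WT 1 of these was positive and 9 negative, with a median log2 fold change of -0.24, beside 0 over all genes. The median was -0.26 in STING KO versus cGAS KO, with 3 positive and 7 negative, and -0.04 in cGAS KO versus WT, with 4 positive and 6 negative. Wdfy3, which encodes a large autophagy scaffold, was at 232.4, 339.8 and 234.9 CPM in STING KO libraries and 187.6, 227.2 and 588.6 CPM in WT libraries. Its groups overlap and the WT mean is set by replicate 3, a library that stands apart.

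Entpd4 (ENSMUSG00000095463, chromosome 14, 69337174 to 69367270, plus strand) encodes a nucleoside diphosphatase of the Golgi and lysosomal membranes. It had 0, 1 and 1 counts in cGAS KO, 1, 0 and 3 counts in STING KO, and 2, 1 and 1 counts in WT libraries. All 9 values are at or below the floor of 3 counts, so no difference between groups was detectable at this depth and no fold is given. The gene was not tested.

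Entpd4 has an identical copy on the same chromosome, Entpd4b (69555424 to 69585520, plus strand). Of 6 annotated Entpd4 transcripts, 5 are letter for letter those of Entpd4b and all 6 are contained in its transcripts. The start of the longest coding exon is shown for both, in the coding orientation and with GRCm38 coordinates, because no read that falls inside it can be placed at either gene. The lines hold no capitals, since no letter differs.
Entpd4, chr14:69361639-69361758, plus strand: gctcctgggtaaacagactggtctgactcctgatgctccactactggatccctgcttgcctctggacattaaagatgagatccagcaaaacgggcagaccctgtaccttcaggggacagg
Entpd4b, chr14:69579889-69580008, plus strand: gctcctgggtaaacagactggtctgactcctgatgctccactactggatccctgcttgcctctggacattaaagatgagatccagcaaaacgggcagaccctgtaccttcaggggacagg

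Entpd4b was counted more often, and unevenly. It had 23, 6 and 159 counts in cGAS KO, 15, 104 and 15 counts in STING KO, and 5, 16 and 7 counts in WT libraries. The high values are in cGAS KO replicate 3 and STING KO replicate 2, and the other libraries of both groups overlap WT or lie close to it. Summed over both genes, the level was 1.33, 0.528 and 10.5 CPM in cGAS KO, 0.995, 7.25 and 1.01 CPM in STING KO, and 0.316, 0.913 and 0.566 CPM in WT. Entpd4b had the largest log2 fold change among the nearest tested neighbours of any member in cGAS KO versus WT, 2.94 ± 1.26 (SE, adjusted p 0.9999 in edgeR). Gm16867 on the minus strand shares exonic bases with Entpd4 and had 19, 7 and 20 counts in cGAS KO, 18, 50 and 22 counts in STING KO, and 15, 5 and 11 counts in WT libraries. Its highest value was in STING KO replicate 2. The sources used here do not give the strand setting of the counting, so reads of these overlapping genes cannot be told apart.

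Other transcripts with at least 100 bases at 95% identity to Entpd4 belong to Gm27177, Gm27221, Gm27176 and Dnajc14. The first 3 had at most 7 counts in any library. Dnajc14, a co-chaperone gene on chromosome 10, was at 45.95, 40.60 and 41.92 CPM in cGAS KO, 45.89, 23.91 and 46.45 CPM in STING KO, and 48.27, 39.89 and 27.59 CPM in WT libraries. Its 2 lowest values are in STING KO replicate 2 and WT replicate 3. Of 7 other NTPDases listed, 6 were tested and 0 called in each comparison, with medians of 0.06 in cGAS KO versus WT and -0.08 in STING KO versus WT.

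Ide (ENSMUSG00000056999, chromosome 19, 37268743 to 37337852, minus strand) encodes insulin-degrading enzyme, a zinc metallopeptidase that cleaves insulin and amyloid beta. A copy gain that spans Ide and its neighbour Fgfbp3 is known from some C57BL/6J stocks. Ide was at 40.96, 65.58 and 59.15 CPM in cGAS KO, 41.66, 70.39 and 47.35 CPM in STING KO, and 48.59, 47.19 and 75.42 CPM in WT libraries. The 3 groups overlap over most of their range, and in each the highest library is the one that stands apart. The log2 fold change was -0.05 ± 0.28 in cGAS KO versus WT, -0.10 ± 0.28 in STING KO versus WT and -0.06 ± 0.28 in STING KO versus cGAS KO (SE, adjusted p 0.9999 or more in edgeR). Without the 3 libraries that stand apart the first of these turned to 0.06 ± 0.18.

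Fgfbp3, which encodes a secreted carrier of fibroblast growth factors, was at 5.45, 1.74 and 3.34 CPM in cGAS KO, 6.16, 1.81 and 4.25 CPM in STING KO, and 4.15, 4.08 and 3.396 CPM in WT libraries. Its groups overlap as well, and its low libraries are not those low in Ide. Its log2 fold change was -0.14 ± 0.51 in cGAS KO versus WT and 0.07 ± 0.51 in STING KO versus WT (SE, edgeR). Among 9 other peptidases listed for amyloid and insulin, 9 were tested and 0 called in each comparison. The most abundant, Nrd1 (nardilysin), was at 194 ± 53.6 CPM in cGAS KO, 172.6 ± 36.3 CPM in STING KO libraries and 172.1 ± 22.0 CPM in WT (SD, n = 3 each).

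Gabra2 (ENSMUSG00000000560, chromosome 5, 70957597 to 71095849, minus strand) encodes the alpha-2 subunit of the GABA-A receptor, the chloride channel of fast inhibition. It was at 95.03, 263.8 and 111.9 CPM in cGAS KO, 82.94, 300.1 and 68.70 CPM in STING KO, and 92.30, 100.2 and 191.4 CPM in WT libraries. The 3 libraries that stand apart lie at 191.4 to 300.1 CPM and the other 6 at 68.70 to 111.9 CPM, with no overlap between them, while the 3 genotypes overlap. Ide was split in the same way, and the share of genes with such a split was not counted. Over all 9 libraries the log2 fold change was 0.29 ± 0.60 in cGAS KO versus WT, 0.23 ± 0.60 in STING KO versus WT and -0.06 ± 0.60 in STING KO versus cGAS KO (SE, adjusted p 0.9999 or more in edgeR).

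Among the other 6 libraries, STING KO had 82.94 and 68.70 CPM of Gabra2, against 95.03 and 111.9 CPM in cGAS KO libraries and 92.30 and 100.2 CPM in WT. Both STING KO libraries were below the other 4. The share of genes with this order was not counted, so it cannot be read as particular to Gabra2. The log2 fold change was then -0.35 ± 0.15 in STING KO versus WT (SE, unadjusted p 0.0477, adjusted p 0.7205 in edgeR). It was -0.45 ± 0.15 in STING KO versus cGAS KO (SE, unadjusted p 0.016, adjusted p 0.9264) and 0.10 ± 0.15 in cGAS KO versus WT. Gabra2 was not called in any of these, where 0.0227%, 0.017% and 0% of 17657 genes were called in the same order. The direction in STING KO versus WT thus depends on the libraries that stand apart, and this choice of libraries was made after the data were seen.

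**Figure D2:**
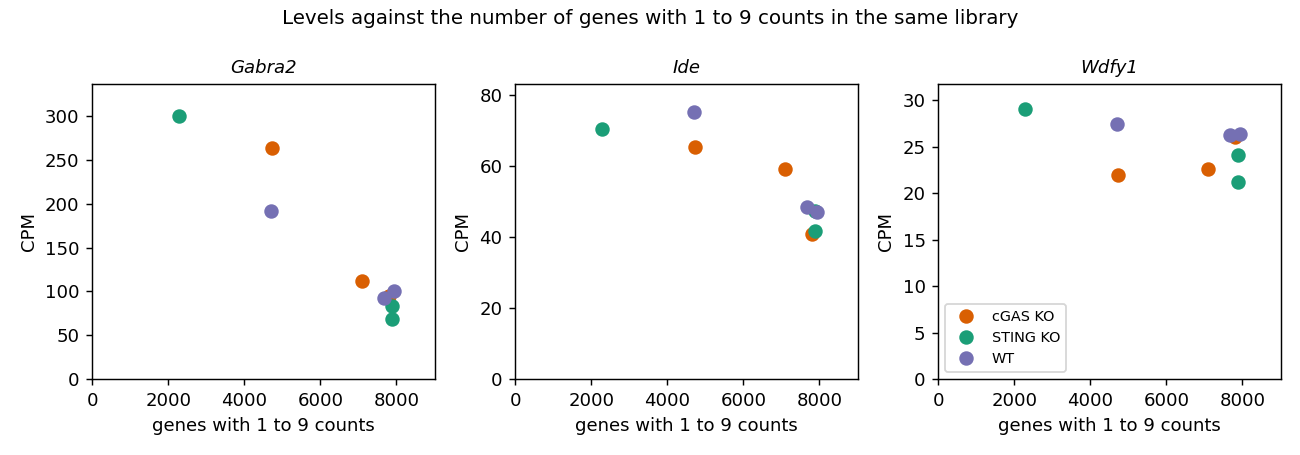
Level in CPM of Gabra2, Ide and Wdfy1 (vertical axes, starting at 0) against the number of genes with 1 to 9 counts in the same library, coloured by group. The 3 libraries with 2280 to 4723 such genes hold the 3 highest Gabra2 levels, 191.4 to 300.1 CPM, and the 3 highest Ide levels, while Wdfy1 shows no such split.

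Gabra2 and Ide moved together over the 9 libraries, with a Pearson correlation of log2 CPM of 0.86. The points share their libraries and the split of complexity described above, so this is a description of the libraries. The genes most like Gabra2 over the 9 libraries were Clip4 (r = 0.993), which had 179.5, 186.4 and 148.1 CPM in the 3 libraries that stand apart and 104.9 to 127.1 CPM in the other 6, and Gm38157 (r = 0.992), which had 10.9, 12.1 and 5.38 CPM in the 3 libraries that stand apart and at most 1.38 CPM in the other 6. Those most like Ide were AC098880.2 (r = 0.993) and the histone acetyltransferase gene Kat6a (r = 0.992).

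Of 14 other GABA-A receptor subunits listed, 12 were tested and 0 called in each comparison. In STING KO versus WT 1 was positive and 11 negative, with a median log2 fold change of -0.30 beside 0 over all genes. The counts and medians of this and the other lists are over all 9 libraries. These include WT replicate 3, which stands apart and had the highest summed cortical excitatory markers. The subunits share their libraries, so their signs are not separate measurements. In STING KO versus cGAS KO 2 were positive and 10 negative, with a median of -0.11, and in cGAS KO versus WT 4 were positive and 8 negative, with a median of -0.07. Gabra4, the alpha-4 subunit, was at 169.3, 280.2 and 182.4 CPM in STING KO libraries and 207.4, 243.0 and 238.7 CPM in WT libraries, and the groups overlap.

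**Figure D3:**
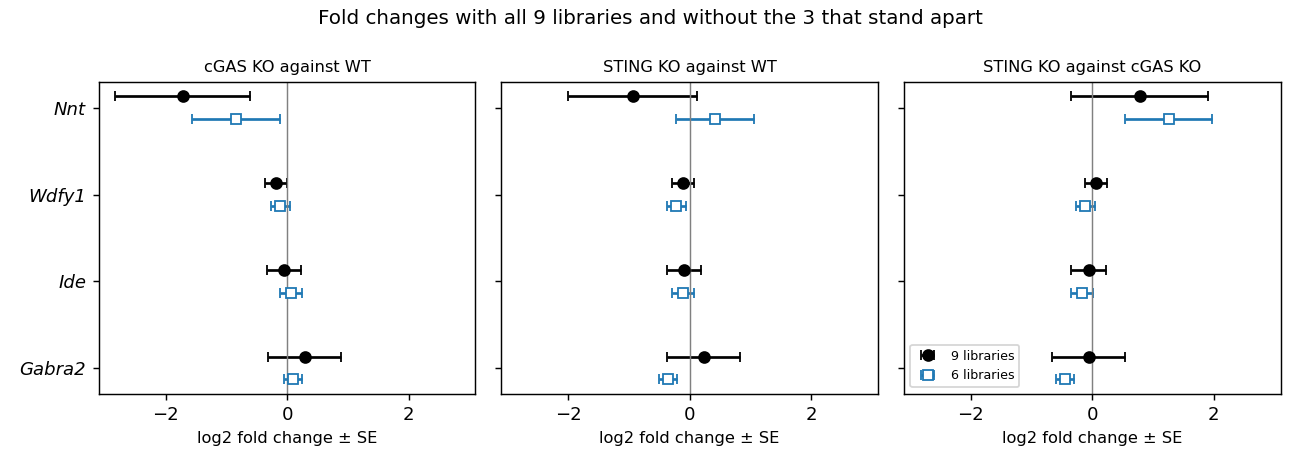
Log2 fold change with its SE (horizontal axis) of Nnt, Wdfy1, Ide and Gabra2 in the 3 comparisons, over all 9 libraries (black circles) and without the 3 libraries that stand apart (blue squares). The SE of Gabra2 is 0.60 with 9 libraries and 0.15 with 6, and the sign for STING KO versus WT differs between them (0.23 and -0.35).

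Further genes that separate C57BL/6 sublines were listed besides the members, among them Crb1, Cyfip2, Nlrp12, Fgfbp3 and Dock2. Of the 7 listed, 5 were tested and 0 called in each comparison. Nlrp12 did not pass the filter on low counts.

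Crb1, a polarity gene of the retina that carries a frameshift in C57BL/6N, was at 1.45, 2.04 and 2.62 CPM in cGAS KO, 0.746, 0.627 and 0.894 CPM in STING KO, and 1.67, 1.503 and 0.708 CPM in WT libraries. Every STING KO library lay below every cGAS KO library, as in 3.72% of genes, and WT replicate 3 lay within the STING KO range. The log2 fold change was -1.42 ± 0.52 in STING KO versus cGAS KO and -0.77 ± 0.51 in STING KO versus WT (SE, adjusted p 1 and 0.9999 in edgeR). Cyfip2, an actin regulator with a coding variant in C57BL/6N, averaged 1242 ± 366 CPM in cGAS KO, 1017 ± 157 CPM in STING KO libraries and 1111 ± 335 CPM in WT (SD, n = 3 each). Dock2, a guanine exchange factor with a known duplication in some C57BL/6N stocks, averaged 5.43 ± 1.32, 5.73 ± 1.87 and 4.97 ± 0.385 CPM in cGAS KO, STING KO and WT. Counts per gene carry no alleles, so the coding variants of Crb1, Cyfip2 and Nlrp12 were not read here.

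AC149090.1 (ENSMUSG00000095041) lies on the unplaced scaffold JH584304.1 of GRCm38, 52190 to 59690, minus strand, and GENCODE M21 lists it as protein coding. RefSeq's entry for its transcript is Pisd-ps3, a transcribed pseudogene of Pisd, the gene of the mitochondrial enzyme phosphatidylserine decarboxylase, at 52674 to 59689 of the scaffold. It had 725.9, 382.9 and 217.1 CPM in cGAS KO, 1117, 1411 and 1118 CPM in STING KO, and 176.1, 256.1 and 254.8 CPM in WT libraries. All STING KO libraries were above all others, an order seen in 3.4% of genes against WT and in 3.63% against cGAS KO. The cGAS KO libraries were spread over more than a 3-fold range, with replicates 1 and 2 between the STING KO and WT ranges and replicate 3 inside the WT range.

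The mean of AC149090.1 was 1215 ± 169 CPM in STING KO, 442 ± 260 CPM in cGAS KO libraries and 229 ± 45.8 CPM in WT (SD, n = 3 each). The log2 fold change was 2.41 ± 0.40 in STING KO versus WT, 1.46 ± 0.39 in STING KO versus cGAS KO and 0.95 ± 0.39 in cGAS KO versus WT (SE, with no test). Without cGAS KO replicate 1 the last of these was 0.39 and the difference of STING KO from cGAS KO was 2.02. Without the 3 libraries that stand apart the value in STING KO versus WT was 2.37 ± 0.48.

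Relatives of AC149090.1 were chosen for description after values had been seen. Pisd itself (chromosome 5, minus strand) was at 17.0, 8.08 and 11.6 CPM in cGAS KO, 17.4, 12.96 and 17.3 CPM in STING KO, and 13.8, 12.7 and 7.15 CPM in WT libraries, and the groups overlap. Pisd-ps1 (chromosome 11) was at 24.1, 16.6 and 14.3 CPM in cGAS KO, 34.6, 70.7 and 31.0 CPM in STING KO, and 14.8, 13.5 and 27.2 CPM in WT. All STING KO libraries exceeded all others in Pisd-ps1, an order seen in 3.4% of genes against WT and in 3.63% against cGAS KO. The margin was smaller than in AC149090.1, with 31.0 CPM in STING KO replicate 3 against 27.2 CPM in WT replicate 3. Pisd-ps2 (chromosome 17) was at 4.64, 3.32 and 5.90 CPM in cGAS KO, 3.98, 8.09 and 4.19 CPM in STING KO, and 2.71, 4.03 and 7.64 CPM in WT, with overlap of all groups. The sequence of AC149090.1 was not compared with those of Pisd, Pisd-ps1 and Pisd-ps2 here, so whether reads are shared among them was not tested.

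**Figure D4:**
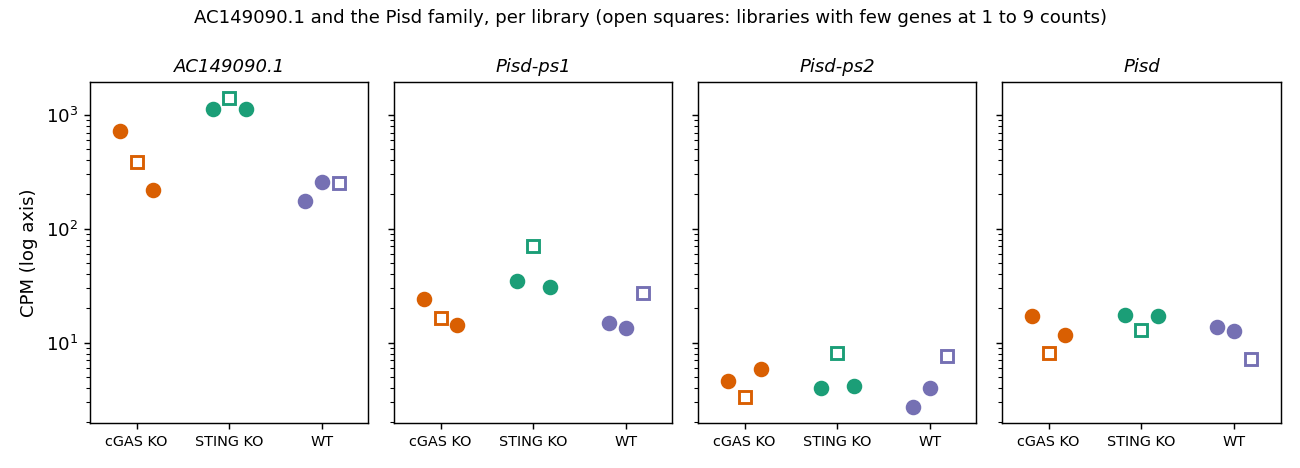
Level in CPM on a log axis of AC149090.1, Pisd-ps1, Pisd-ps2 and Pisd in each library of cGAS KO, STING KO and WT, with open squares for the 3 libraries with few genes at 1 to 9 counts. AC149090.1 lies at 1117 to 1411 CPM in STING KO, above every other library, while Pisd overlaps between groups.

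The genes whose pattern over the 9 libraries was most like that of AC149090.1 were Mex3d (r = 0.918), which encodes an RNA-binding protein, and Mpc1 (r = 0.915), a subunit of the mitochondrial pyruvate carrier. Mex3d was at 21.5, 15.0 and 14.6 CPM in cGAS KO, 24.9, 28.4 and 21.1 CPM in STING KO, and 13.8, 10.6 and 13.8 CPM in WT libraries. Among the genes most like Nnt were Morc2b (r = 0.97) and Zfp568 (r = 0.948), and among those most like Wdfy1 were Zfp932 (r = 0.933) and Katnbl1 (r = 0.93). These are the highest of 17821 genes over 9 libraries and carry no p.

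Gm10600 (ENSMUSG00000083929, chromosome 4, 42240639 to 42242685, plus strand) is a predicted gene with 1 exon of 2047 bases and a coding stretch of 669 bases. The sources used here give no function for it. It had 20, 17 and 23 counts in cGAS KO, 0, 0 and 0 counts in STING KO, and 32, 37 and 50 counts in WT libraries. STING KO stood below both other groups in every library, an order seen in 3.67% of genes against WT and in 3.72% against cGAS KO. The 3 STING KO libraries together allow up to 3 counts, or 0.0621 CPM, against 1.31 CPM over the cGAS KO libraries and 2.17 CPM over the WT libraries. With these pooled levels taken as exact, Gm10600 was at least 34.9-fold lower in STING KO than in WT and at least 21.1-fold lower than in cGAS KO. This is a description with no test. The limit covers counting error in STING KO only, and leaves out the spread of the other groups (1.445 to 3.537 CPM in WT libraries). In cGAS KO versus WT the log2 fold change was -0.81 ± 0.56 (SE), and without WT replicate 3 it was -0.38.

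Gm10600 has many near copies, all on the same stretch of chromosome 4. Transcripts of 14 other genes, between 41809083 and 42856771, match it over 165 to 1940 bases at 97.7% to 99.9% identity. A coding window is shown with 3 copies because it holds letters that set Gm10600 apart from them. Positions count from 1 at the first base of the Gm10600 coding sequence, the window runs from 340 to 459, and capitals mark every position where any of the 4 differ.
Gm10600, chr4:42241406-42241525, plus strand: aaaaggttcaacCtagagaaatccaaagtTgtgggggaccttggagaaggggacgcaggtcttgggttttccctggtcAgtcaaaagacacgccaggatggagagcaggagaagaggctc
Gm17167, chr4:42232790-42232909, plus strand: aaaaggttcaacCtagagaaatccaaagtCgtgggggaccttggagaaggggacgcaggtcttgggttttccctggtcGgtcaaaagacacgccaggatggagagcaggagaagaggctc
Gm5859, chr4:42238533-42238652, plus strand: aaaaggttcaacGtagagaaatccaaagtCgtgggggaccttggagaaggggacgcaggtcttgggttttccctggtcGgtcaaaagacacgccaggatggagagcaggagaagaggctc
Gm2163, chr4:42589119-42589238, plus strand: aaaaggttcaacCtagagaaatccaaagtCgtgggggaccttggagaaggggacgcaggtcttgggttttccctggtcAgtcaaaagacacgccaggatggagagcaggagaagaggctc

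The difference T369C, at position 42241435 of chromosome 4, was found in 11 of the 11 copies whose match covers it, and the remaining letters of the window differ in fewer copies (among those shown, C352G in Gm5859, and A418G in Gm17167 and Gm5859). In 7 copies it was the only substitution over the coding bases aligned, which were 534 to 663 of 669. Gaps and unaligned ends were not counted. The sources used here do not say whether reads that match in several places were counted, so counts of this family are uncertain gene by gene.

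The counts of the near copies are a description with no test, since the copies were found by their likeness to Gm10600, itself chosen for its counts in STING KO. The 14 near copies summed to 65, 84 and 64 counts in cGAS KO, 15, 7 and 21 counts in STING KO, and 75, 111 and 185 counts in WT libraries, with no overlap of STING KO with either group. Among single genes tested, 3.67% had all STING KO libraries below all WT libraries, and 3.72% had them below all cGAS KO libraries. Pooled over libraries the level of the copies was 0.89 CPM in STING KO, 4.66 CPM in cGAS KO libraries and 6.76 CPM in WT. The ratio of STING KO to WT was 0.132 (95% counting interval 0.0937 to 0.181), and that of STING KO to cGAS KO was 0.191 (0.134 to 0.266). These intervals cover counting error only, and only if each count is a separate read. They leave out the spread between libraries (3.387 to 13.09 CPM in WT) and are no test. Of the 14 copies, 14 had a lower share of counts in STING KO than in WT and 13 a lower share than in cGAS KO, and 5 had 0 counts in STING KO. Many of these differences are small: Gm10601 had 4 counts in STING KO and 4 in cGAS KO, Gm3883 had 2 and 2, and Gm2163 had 3 and 4. The copies may share reads, so they cannot be taken as separate measurements.

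The most counted copies were Gm21093, with 76 counts over cGAS KO, 22 over STING KO and 75 over WT libraries, and Gm17167, with 43, 2 and 82 counts in the same groups. These are also the 2 copies that passed the filter, and neither was called in any comparison. Gm17167, 5.3 kilobases away, had the largest log2 fold change among the nearest tested neighbours of any member in STING KO versus WT, -5.20 ± 1.5, and in STING KO versus cGAS KO, -4.35 ± 1.5 (SE, adjusted p 0.9999 and 1 in edgeR). Of its 82 WT counts 65 were in WT replicate 3.

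**Figure D5:**
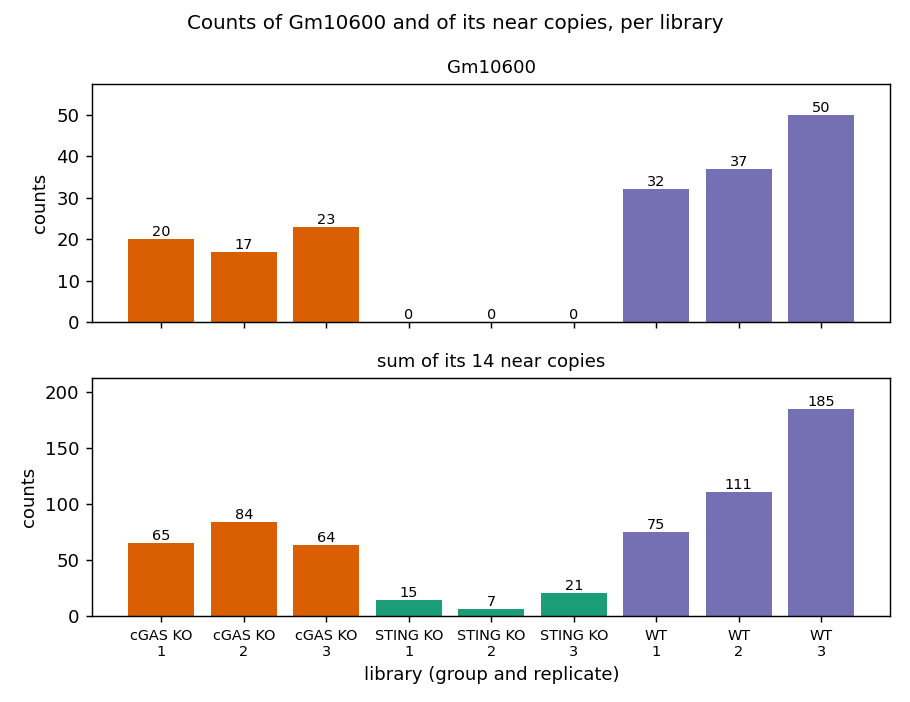
Counts per library (vertical axes, starting at 0) of Gm10600 and of its 14 near copies summed, coloured by group. STING KO libraries hold 0 counts of Gm10600 and 7 to 21 of the copies, against 17 to 50 and 64 to 185 in the other 6 libraries.

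For each member on a chromosome, the 5 nearest tested genes on each side were examined. Around Nnt, Wdfy1, Entpd4, Ide, Gabra2 and Gm10600, 0 of 10 were called in any comparison. Since 0% of the 17821 genes tested were called in each comparison, this count says nothing particular to these regions. The nearest tested genes can also be far away, up to 3048.6 kilobases for Gm15477 beside Gabra2. Their median log2 fold changes ran from -0.38, around Gabra2 in cGAS KO versus WT, to 0.27, around Entpd4 in STING KO versus WT. Around Gm10600 the median in STING KO versus WT was -0.07, with values from -5.20 to 0.48, and the low end is the near copy Gm17167.

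AC149090.1 and Gm10600 ran opposite to each other, with a correlation of log2 CPM of -0.89 over the 9 libraries that rests on the STING KO libraries. Both were chosen for separating lines, so this value is no support for a relation. Over all genes tested, the spread of group means was 2.42 on the log2 scale for AC149090.1, above that of 99.9% of genes, which describes how it was chosen. For Wdfy1, Ide and Gabra2 the spread of group means was 0.18, 0.11 and 0.24, above that of 22.4%, 8.31% and 32.7% of genes, and the median over genes was 0.34. For Nnt it was 1.17, above that of 93.6% of genes, on at most 24 counts in a library.

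The genes most like Gm10600 over the libraries were Slc19a3, a thiamine transporter gene (r = 0.958), and mt-Tr, a mitochondrial transfer RNA gene (r = 0.934). Slc19a3 was at 6.21, 6.11 and 5.50 CPM in cGAS KO, 4.17, 4.46 and 4.64 CPM in STING KO, and 6.05, 6.66 and 6.86 CPM in WT libraries. mt-Tr was at 1.74, 7.17 and 4.26 CPM in cGAS KO, 0.249, 0 and 0.112 CPM in STING KO, and 2.57, 2.69 and 4.25 CPM in WT. In both genes all STING KO libraries were below the other 6, which is what the measure of likeness selected for.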

How the data were processed

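Polyadenylated RNA of striatum was sequenced as paired reads in 9 libraries, per the labels' protocols. The submitters' processing notes name HISAT2 (aligner), featureCounts (counter) and the mm10 build. The sources used here give no versions, annotation or strand setting, nor how reads matching several places were treated. The authors deposited whole counts for each gene, and the values show no normalization. GENCODE M21 on GRCm38 (the assembly behind mm10) held 54495 of the 54532 gene IDs. RefSeq tables of the same assembly gave the entry for AC149090.1.

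The test was that of edgeR 4.0.16 in R 4.3.3 (quasi-likelihood F test, all 9 libraries in 1 fit, TMM factors, filterByExpr), with Benjamini-Hochberg adjustment over 17821 genes and a threshold of 0.05. SEs come from the fold change and its F statistic. Log2 CPM used a prior count of 2. Near copies were found among GENCODE transcripts with blastn 2.17.0 (at least 100 bases at 95% identity), and the sequences shown were read from the same transcripts. Alternatives were DESeq2 1.42.0 without a count filter, limma-voom of limma 3.58.1, other scalings and filters, fewer libraries and the replicate number as a block. The fit was tested on simulated counts, with changes set only in genes more abundant than Nnt, Entpd4 and Gm10600. That test therefore does not bear on these 3 members. A chi-square test found no replicates that differed by as little as sampling noise.

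Members and lists were chosen with earlier results of these data known. Named genes were the members, the 2 genes most like each, near copies, the neighbour with the largest change, the 2 most abundant genes of a list and the targeted genes. The libraries that stand apart, those with under 0.75 times the median number of genes with 1 to 9 counts, were set after the data were seen. Some items among the named genes are not reported here.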

Additional observations from a re-analysis of the deposited data

How the results depend on the processing

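Nnt, Wdfy1, Ide and Gabra2 were called under none of the alternatives run, with any tool. The number of genes called was 0 in each comparison under limma-voom, the other scalings, the CPM filter, the 6 libraries compared, the replicate block, and in every fit that left out 1 library (lowest 0, highest 0). DESeq2 called 1 gene in cGAS KO versus WT, 10 in STING KO versus WT and 8 in STING KO versus cGAS KO. Without a count filter edgeR called 0, 4 and 4 in that order, over more genes. Without the 3 libraries that stand apart, chosen after seeing the data, it called 0, 4 and 3. The replicate block turned Gabra2 in STING KO versus WT to -0.10 (log2, as below). Of 9 same-numbered pairs of libraries, 4 had a correlation over 0.1 (lowest -0.45, highest 0.5), and 3 libraries correlated best with their own number. The libraries that stand apart do not all carry the same replicate number, and their split enters these correlations. The check therefore cannot decide whether replicate numbers pair the libraries.

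Signs of these uncalled fold changes turned in other fits too. With limma-voom Gabra2 was -0.02 in STING KO versus WT and Nnt was -0.0024 in STING KO versus cGAS KO. Scaled by library totals alone, Ide was 0.03 and Gabra2 0.02 in STING KO versus cGAS KO. Without the 3 libraries that stand apart, Ide was 0.06 in cGAS KO versus WT, Nnt 0.42 and Gabra2 -0.35 in STING KO versus WT, and Wdfy1 -0.11 in STING KO versus cGAS KO. With 1 library left out at a time, Ide ranged from -0.18 to 0.20 in cGAS KO versus WT, from -0.35 to 0.14 in STING KO versus WT and from -0.31 to 0.09 in STING KO versus cGAS KO. Gabra2 ranged from -0.30 to 0.70, from -0.75 to 0.64 and from -1.04 to 0.53 in that order, and Wdfy1 from -0.05 to 0.17 in STING KO versus cGAS KO. Nnt ranged from -2.17 to -0.90, from -1.38 to -0.12 and from 0.37 to 1.34 in the same order of comparisons as Ide. The causes were not tested. Nnt and Wdfy1 kept a negative sign in cGAS KO versus WT in all fits that gave a value. Nnt had no value with the filter of 1 CPM in 3 libraries, nor, for either comparison with cGAS KO, with only the 6 libraries compared. Nnt, Entpd4 and Gm10600 rest on at most 50 counts in a library, so depth limits what can be said of them.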

Other observations

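The split of counts between the mitochondrial gene mt-Nd3 and its nuclear copy Gm28438 differed between STING KO and the other groups. The pair was named with earlier results of these data known, so its values are a description with no test. Across single genes tested, all STING KO libraries lay below all WT libraries in 3.67% and above them in 3.4%. Against cGAS KO these shares were 3.72% and 3.63%. The same was not counted for pairs of genes. Gm28438 held 86.1%, 96.2% and 88.9% of the counts of both genes in STING KO, against 9.12%, 5.29% and 7.82% in cGAS KO and 9.07%, 9.84% and 3.67% in WT libraries. Summed, the counts of both were 603, 656 and 641 in STING KO, 636, 586 and 1138 in cGAS KO, and 948, 915 and 218 in WT libraries, with overlap of STING KO with cGAS KO and of all groups with each other. In cGAS KO replicate 1, which had the highest AC149090.1 level of its group (725.9 CPM), the share of Gm28438 was 9.12% and Gm10600 had 20 counts.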
